A study of Mus musculus with 18 samples.

Results

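The genes described here are the ligands, the signalling receptor and the binding proteins of the insulin-like growth factor (IGF) system in mouse intestine. They are 9 of the 23238 gene symbols counted in every library: the ligands Igf1 and Igf2, the receptor Igf1r, and the binding proteins Igfbp2, Igfbp3, Igfbp4, Igfbp5, Igfbp6 and Igfbp7. The members were chosen by symbol, and selected on their CPM in the 4 groups, which were already known, so the values and adjusted p-values that follow are a description of the members and not independent evidence for choosing them. Together the members took 0.238% to 0.719% of the reads of a WT stromal library.

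The 18 libraries came from cells sorted out of the small intestine of adult C57BL/6J mice. Per the labels, every mouse carried the tamoxifen-inducible PDGFRb-CreERT2 driver and a tdTomato reporter, controls included, and the mice labelled KO carried floxed Lats1 and Lats2 on both chromosomes in addition. One cell population was the PDGFRb+ intestinal stromal cells (IntSCs), with 6 WT and 5 KO libraries. The other was lymphatic endothelial cells (LECs) sorted from the small intestine, with 4 WT and 3 KO libraries. Lacteals are the blind-ended lymphatics of the villi. The study calls the cells intestinal LECs and, in its supplement, also lacteal LECs. Before sorting, the serosa, muscle layer, mesenteric fat and Peyer's patches were removed. Its methods name no step that separates lacteals from lymphatics of the submucosa. Lats1 and Lats2 are the core kinases of the Hippo pathway, which hold back the transcriptional co-activators YAP and TAZ. The Pdgfrb driver acts in fibroblasts, pericytes and part of the smooth muscle, so the LECs were exposed to mutant stroma rather than being its target.

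IGF1 and IGF2 are secreted growth factors that signal through the receptor tyrosine kinase encoded by Igf1r, and in the intestine mesenchymal cells are a known source of ligand for the epithelium and vessels around them. The binding proteins IGFBP2 to IGFBP6 hold the ligands outside the cell with high affinity and can block or prolong their action. IGFBP7 binds IGFs weakly and is known as a matrix protein of vessel walls. Proteases such as pappalysin 1 (Pappa) cut binding proteins and free the ligand, and the stanniocalcins Stc1 and Stc2 inhibit that protease.

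Total counts ranged from 5361250 to 7971443 in WT IntSC, 6485735 to 8095271 in KO IntSC, 7464241 to 10549233 in WT LEC and 6900493 to 8914526 in KO LEC libraries. Levels are given as CPM, read counts scaled to the size of the library, with one set of TMM factors over the 18 libraries. The libraries read only the 3′ end of a transcript and carry no length scaling, so CPM of different genes are not compared with each other. The lymphatic endothelial marker list summed to 13.1 to 87.3 CPM in the IntSC libraries and to 7881 to 14737 CPM in the LEC libraries, while the pan-stromal list summed to 7425 to 16845 CPM in IntSC and to 309.9 to 2083 CPM in LEC libraries. The targeted genes did not check the genotype labels: Lats1 averaged 17.3 CPM in WT IntSC and 15.9 CPM in KO IntSC, and Lats2 averaged 72.0 CPM and 113 CPM. A transcript that has lost internal exons is still counted at its 3′ end, so "KO" below means libraries labelled KO. The study counts its sequenced cells in mice per group, collected over several experiments, but the labels tie no library to a mouse or an experiment, so the p-values measure the spread between these libraries and an experiment could not be entered as a term. In sorted bulk RNA, fewer cells of a type and less RNA per cell cannot be told apart.

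Igfbp2 and Igfbp5 are neighbours. In the RefSeq annotation of GRCm38.p6, Igfbp2 lies on the plus strand at chr1:72824480-72852474 and Igfbp5 on the minus strand at chr1:72858065-72874865, so that their 3′ ends face each other across 5590 bp. They are also the members whose levels differed most clearly between WT and KO stroma, and for that reason the sequences upstream of their start sites are shown. Each window runs from 250 to 51 bases before the annotated start, chr1:72824230-72824429 (+) for the first start site of Igfbp2 and chr1:72874916-72875115 (-) for Igfbp5. Capitals mark GGAAT or its reverse complement ATTCC, the core of the element bound by TEAD factors, the DNA-binding partners of YAP and TAZ.
Igfbp2: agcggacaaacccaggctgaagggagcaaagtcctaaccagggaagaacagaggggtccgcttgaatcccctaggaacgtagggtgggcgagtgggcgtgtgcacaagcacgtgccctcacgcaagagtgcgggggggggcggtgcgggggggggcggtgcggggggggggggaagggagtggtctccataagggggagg
Igfbp5: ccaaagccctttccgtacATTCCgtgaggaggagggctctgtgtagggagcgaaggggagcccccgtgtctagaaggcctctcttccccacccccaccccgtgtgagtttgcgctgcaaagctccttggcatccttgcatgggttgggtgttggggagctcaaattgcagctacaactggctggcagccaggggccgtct
Both strands were searched for GGAAT, a string that also lies inside the longer GGAATG. Igfbp5 held 1 match, on the minus strand of the window and 232 bases before the start, and Igfbp2 held none in its 2 annotated windows. Of all 32851 RefSeq promoter windows of this length, 29.1% held GGAAT and 10.7% held GGAATG. Among the 13 windows of the 9 members, 4 held GGAAT, and these belonged to Igf2 and Igfbp5. A match describes letters in a window only, and no binding was measured here.

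The first comparison asked how the IGF genes of the stromal cells themselves differed when Lats1 and Lats2 were targeted in them. Of the 9 members, Igfbp2 was higher and Igfbp5 was lower in KO IntSCs at an adjusted p under 0.05 (edgeR quasi-likelihood test, Benjamini-Hochberg over 12421 genes), and the other 7 did not pass. Over all genes tested, 1.47% were called in this comparison, 0.853% higher and 0.62% lower, and 2.82% did not overlap between the groups, 1.63% with KO higher and 1.18% with KO lower. Since the members were chosen with these levels known, nothing is read from their count against that background. The median log2 fold change was 0.35 over the 9 members and 0.0026 over all genes tested.

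Igfbp2, a binding protein that carries an integrin-binding motif and is abundant in fetal tissue, was almost unread in WT stroma. The 6 WT IntSC libraries held 0.299, 7.63, 2.02, 0, 5.58 and 0 CPM, from 2, 45, 15, 0, 43 and 0 reads. The 5 KO IntSC libraries held 77.9, 61.2, 68.5, 64.7 and 108 CPM. Every KO library lay above every WT library, with no overlap and a gap from 7.63 to 61.2 CPM. The fitted log2 fold change was 4.85 ± 0.85 (SE, adjusted p = 0.00984, edgeR), a 28.8-fold difference. Igfbp2 passed the filter on low counts through the KO libraries, and 2 WT libraries were at 0, so the size of the fold rests on 105 reads over the WT group.

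Transcripts of another cell type were also higher in KO stroma. The Paneth cell marker list (Lyz1, Mmp7, Itln1, Ang4, Defa24) summed to 0.539 to 9.72 CPM in WT IntSC and 53.7 to 121 CPM in KO IntSC, also without overlap, and 2 of its 3 tested genes were called higher. The epithelial list, with 1 of 5 tested genes called higher, overlapped between the groups, at 0 to 101 CPM in WT and 17.4 to 108 CPM in KO. In the LECs the Paneth list was at 0.497 to 8.65 CPM in WT and 30.3 to 282 CPM in KO, while Igfbp2 overlapped between the LEC groups. The part of such transcripts in the Igfbp2 difference was not tested. The call was kept in 11 of 11 fits that left out 1 library each, but it was lost when no filter on low counts was used beyond 1 read (adjusted p = 0.057, edgeR) and when all 4 groups entered the fit (adjusted p = 0.082, edgeR).

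Igfbp5, a binding protein that sits in the extracellular matrix and is made by fibroblasts and smooth muscle, moved the other way. The WT IntSC libraries held 167, 301, 198, 203, 255 and 314 CPM and the KO IntSC libraries 72.1, 55.4, 107, 74.3 and 137 CPM. The lowest WT library was above the highest KO library, so the groups did not overlap. On the log2 scale KO differed from WT by -1.43 ± 0.24 (SE, adjusted p = 0.00265, edgeR), a level 2.70-fold lower in KO. This call held in 9 of 9 alternative analyses and in 11 of 11 fits without 1 library. The pan-stromal list (Col1a1, Col1a2, Col3a1, Dcn, Lum, Dpt, Pdgfra, Pdgfrb) had 1 of 8 genes called lower and overlapped between the groups, at 10840 to 16845 CPM in WT and 7425 to 12667 CPM in KO. Its genes did not move together. Pdgfrb was higher in KO without overlap, at 211 to 670 CPM in WT and 687 to 1211 CPM in KO. Lum, at 209 to 269 and 101 to 179 CPM, and Dpt, at 1213 to 1841 and 715 to 1144 CPM, were lower without overlap. The other genes of that list overlapped. The pericyte list (Rgs5, Cspg4, Kcnj8, Abcc9, Notch3) had 1 of 5 genes called lower and also overlapped as a sum, at 262 to 508 CPM in WT and 250.2 to 505 CPM in KO. Within it Kcnj8, at 21.3 to 47.3 CPM in WT and 9.41 to 18.3 CPM in KO, and Abcc9, at 39.9 to 78.8 CPM and 11.3 to 39.1 CPM, were lower in KO without overlap, and were singled out after their values were seen. Notch3 of the same list went the other way, at 105 to 192 CPM in WT and 134 to 357 CPM in KO, with overlap. Rgs5 and Cspg4 averaged lower in KO and overlapped. The part of these lists in the Igfbp5 difference was not tested.

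With one gene of the pair higher and its neighbour lower, their balance changed. Igfbp2 supplied 0% to 2.48% of the reads of the pair in WT IntSCs and 39.0% to 52.5% in KO IntSCs. In LECs its share was 0.429% to 12.3% in WT and 0.488% to 4.17% in KO, so the LEC groups overlapped.

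**Figure D1:**
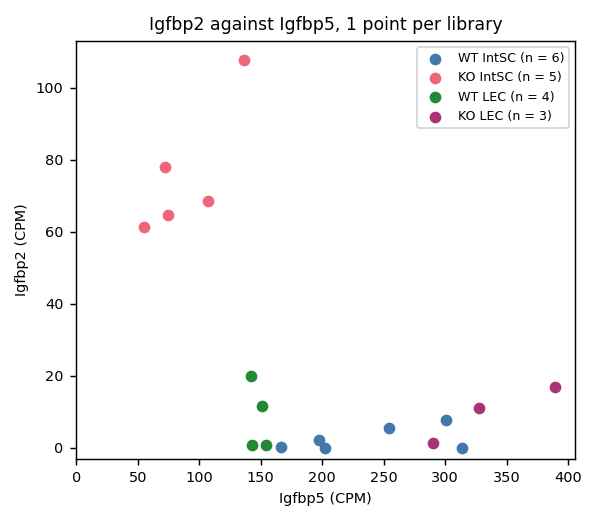
Igfbp2 (y axis, CPM) against Igfbp5 (x axis, CPM), with 1 point per library and 1 colour per group. The 5 KO IntSC points sit apart at 61.2 to 108 CPM of Igfbp2 and at most 137 CPM of Igfbp5, and the 3 KO LEC points lie at 290.5 to 389 CPM of Igfbp5 with at most 16.9 CPM of Igfbp2.

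Neither ligand was called between WT and KO stroma. Igf1, the main growth hormone-regulated ligand, ranged from 245 to 485 CPM (median 392) in the 6 WT IntSC libraries, and the KO IntSC libraries held 335, 293, 282, 482 and 420 CPM. The groups overlapped almost entirely, with a log2 fold change of -0.08 ± 0.20 (adjusted p = 0.969, edgeR) and a 95% interval from -0.48 to 0.31. Igf2, the imprinted fetal ligand, was sparse, at 7.27 to 33.6 CPM in WT IntSC and 14.6 to 26.9 CPM in KO IntSC. Its log2 fold change of 0.35 ± 0.48 (adjusted p = 0.926, edgeR) had a wide 95% interval, from -0.59 to 1.28.

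Igf1r, the receptor, averaged 265 ± 49.0 CPM (SD, n = 6) in WT IntSC and 400.4 ± 73.0 CPM (SD, n = 5) in KO IntSC. The WT libraries ran from 209 to 352 CPM and the KO libraries held 478, 449, 291, 371 and 413 CPM, so that only KO replicate 3 fell below the highest WT library. The log2 fold change of 0.59 ± 0.18 did not pass (adjusted p = 0.118, edgeR). DESeq2 was the single alternative of 9 that called it (adjusted p = 0.0386).

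The remaining binding proteins overlapped between the IntSC groups. Igfbp3, the main carrier of IGFs in blood, was at 39.9 to 201 CPM in WT and 115 to 227 CPM in KO (log2 fold change 0.59 ± 0.32, adjusted p = 0.600, edgeR). Igfbp4, a target of the Pappa protease, was at 876 to 1355 CPM in WT and 915 to 1324 CPM in KO, with a log2 fold change of 0.15 ± 0.16. Igfbp6, which prefers IGF2, was at 3.51 to 30.8 CPM in WT and 18.8 to 44.4 CPM in KO (log2 fold change 0.70 ± 0.43, adjusted p = 0.667, edgeR). Igfbp7 was at 787 to 4828 CPM in WT and 1596 to 3364 CPM in KO, and its log2 fold change was -0.10 ± 0.35.

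**Figure D2:**
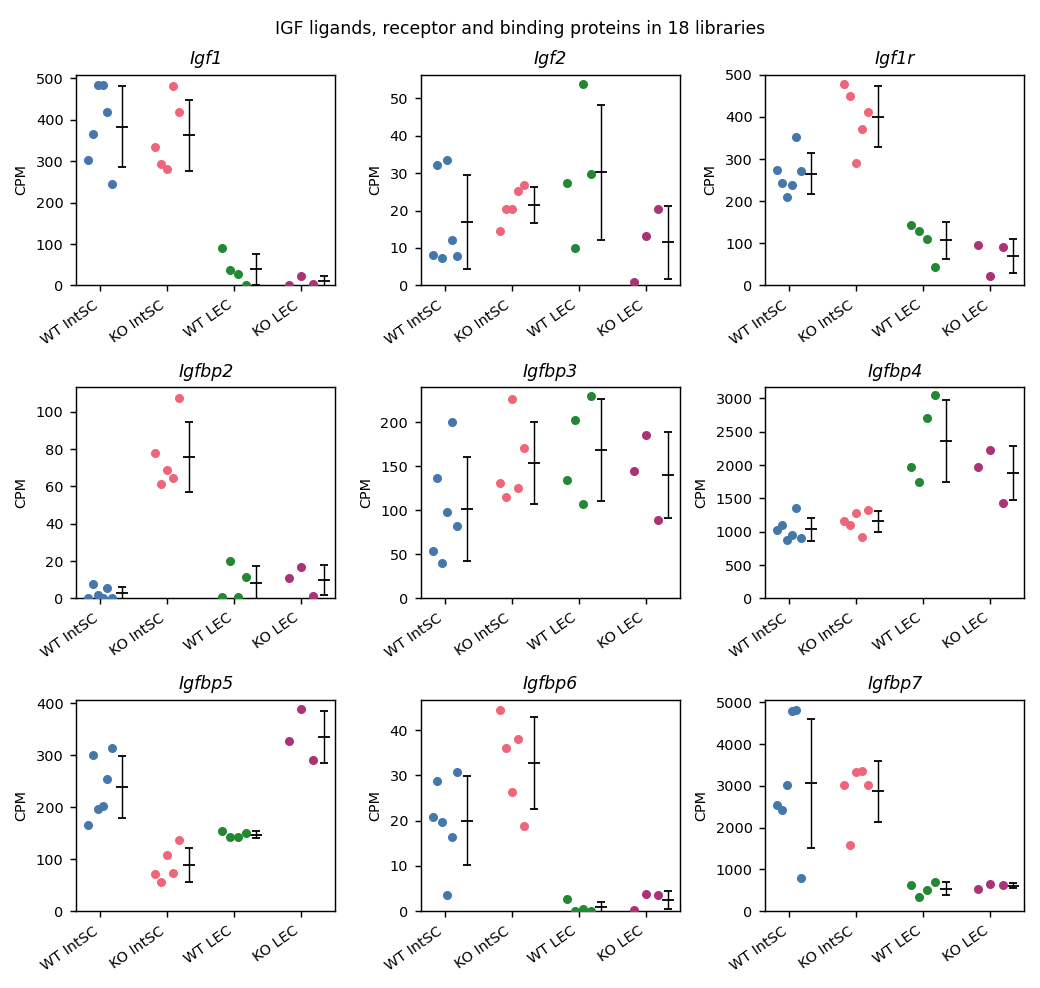
Level of each member (y axis, CPM, a separate scale in each panel) in the 4 groups, with 1 point per library and a bar for the mean ± SD beside it (n = 6, 5, 4 and 3). Igfbp2 is high in the 5 KO IntSC libraries, and Igfbp5 is low in KO IntSC and high in KO LEC. Within each genotype Igf1, Igf1r, Igfbp6 and Igfbp7 are lower in the LEC libraries than in the IntSC libraries.

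The next comparison asked whether IGF genes differed in LECs, which were not the target of the deletion. None of the 9 members was called by edgeR in KO LEC against WT LEC, where 0.0658% of 10639 genes were called over all. At an unadjusted p under 0.05 there was 1 member, Igfbp5. The share of all genes at that threshold was not taken, so nothing is read from this count. DESeq2 called 1 member, the fit of all 4 groups called 1 and limma-voom called 0. Over all genes the fit of all 4 groups called 538, where the main fit called 7.

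Igfbp5 in LECs was at 155, 142, 143 and 151 CPM in the 4 WT libraries and at 327, 389 and 290.5 CPM in the 3 KO libraries. Each KO library was above each WT library, whereas in the stroma each KO library had been below each WT library. KO exceeded WT by a log2 value of 1.20 ± 0.26 (adjusted p = 0.144, edgeR), and it was called by DESeq2 and in the fit of all 4 groups. Of all genes tested, 9.81% did not overlap between the LEC groups, and 4.01% of all genes tested did not overlap with KO higher. Summed marker levels separated the same libraries in 6 of 11 lists. Immediate early genes (Fos, Fosb, Jun, Junb, Egr1, Atf3, Ier2, Dusp1) were at 2702 to 3488 CPM in WT and 1476 to 1659 CPM in KO, with 1 of 8 called lower. The pan-stromal list was at 625.2 to 2083 CPM in WT and 309.9 to 596 CPM in KO, and the blood endothelial list at 546 to 819 CPM and 446 to 520.1 CPM, with Plvap, Flt1, Emcn, Vwf and Esam as its genes. Within the blood endothelial list only Emcn separated the groups, at 471 to 564 CPM in WT and 257 to 338 CPM in KO. Plvap averaged 95.2 CPM in WT and 112 CPM in KO, with overlap, and Esam, Flt1 and Vwf also overlapped. The erythroid list was also lower in KO libraries, at 198 to 441 CPM in WT and 8.96 to 134 CPM in KO, as was the leukocyte list, at 68.6 to 145 CPM and 15.0 to 66.7 CPM, while the Paneth list was the one with KO libraries above. The leukocyte sum was mostly Cd74, which averaged 85.1 CPM in WT and 36.6 CPM in KO and overlapped. Cd52 averaged 5.97 and 3.30 CPM, and the general leukocyte gene Ptprc only 0.0615 and 0.0364 CPM. No gene of these 5 lists was called, and the lymphatic endothelial list overlapped, at 7881 to 11764 CPM in WT and 9346 to 14737 CPM in KO. The part of these lists in the Igfbp5 difference was not tested.

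The other 8 members overlapped between the LEC groups, with adjusted p-values of 0.903 or more in the edgeR fit. Igf1 was at 90.0, 36.3, 28.2 and 0.696 CPM in WT LEC and 1.42, 23.5 and 4.28 CPM in KO LEC. The spread within WT LEC covered the KO values, and the 95% interval of the log2 fold change, from -4.64 to 0.65, was wide. Igfbp2 was uneven in both groups, at 0.666, 19.9, 0.748 and 11.5 CPM in WT LEC and 10.97, 16.9 and 1.43 CPM in KO LEC.

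The difference between the genotype differences was tested in one fit of all 4 groups. Igfbp5 was the only one of the 9 members called: the KO minus WT difference in IntSCs was lower than that in LECs by a log2 value of -2.55 ± 0.37 (adjusted p = 0.000654, edgeR), where 1.7% of 14015 genes were called. It was called in 8 of 8 alternatives and in 18 of 18 fits without 1 library. For Igfbp2 the same difference was large but imprecise, at 4.67 ± 1.72 (adjusted p = 0.175, edgeR), and for Igf1r it was 1.25 ± 0.49 (adjusted p = 0.201, edgeR). The 2 genotype comparisons share no libraries with each other.

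**Figure D3:**
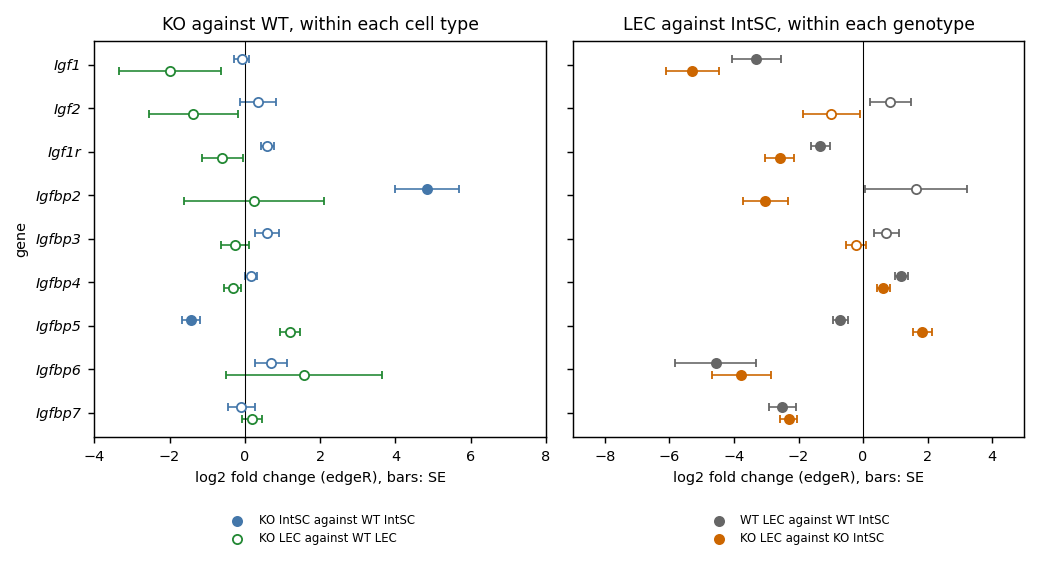
Fitted log2 fold change (x axis) of the 9 members (y axis), bars showing the standard error. The left panel gives KO against WT in each cell type and the right panel LEC against IntSC in each genotype. Filled points passed an adjusted p under 0.05. Igfbp5 lies at -1.43 in stroma and 1.20 in LECs on the left, and at -0.71 in WT and 1.84 in KO on the right.

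The last comparison asked which of the genes belonged more to stroma and which to LECs. In WT, 6 of 9 members were called, Igfbp4 higher in LECs and Igf1, Igf1r, Igfbp5, Igfbp6 and Igfbp7 lower, where 22.6% of 12203 genes were called over all, 10.3% higher and 12.3% lower. In KO, 7 of 9 were called, with Igfbp4 and Igfbp5 higher in LECs and Igf1, Igf1r, Igfbp2, Igfbp6 and Igfbp7 lower, where 25.9% of 12758 genes were called, 9.11% higher and 16.8% lower. The median log2 fold change of the members was -0.71 in WT and -2.30 in KO, against -0.04 and -0.21 over all genes tested. Between the cell types 21.1% of all genes tested did not overlap in WT and 32.2% in KO. These comparisons use the same libraries as the genotype comparisons.

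Igf1 was a stromal ligand in these libraries. Its lowest IntSC value of 245 CPM, in WT replicate 6, stood above its highest LEC value of 90.0 CPM, in WT replicate 1. The log2 fold change of LEC against IntSC was -3.31 ± 0.77 in WT (adjusted p = 0.0064, edgeR) and -5.29 ± 0.82 in KO (adjusted p = 0.00114, edgeR). The WT call was lost when no filter beyond 1 read was used (adjusted p = 0.054, edgeR). WT LEC replicate 1 was also the library with the most stromal marker reads in its group, 2083 CPM against 625.2 to 686 CPM in the others, and no pan-stromal marker was at 0 over a LEC group. How much of the Igf1 reads in LEC libraries came with stromal RNA was not tested.

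Igf2 showed no such split, and its 4 groups overlapped in order of their means, from 30.2 ± 17.97 CPM in WT LEC through KO IntSC and WT IntSC to 11.5 ± 9.79 CPM in KO LEC. Igf1r was lower in LECs, at 144, 129, 109.6 and 44.7 CPM in WT and 95.9, 22.7 and 91.9 CPM in KO. No LEC library reached the lowest IntSC library. Its log2 fold change was -1.32 ± 0.30 in WT (adjusted p = 0.00438, edgeR) and -2.58 ± 0.45 in KO (adjusted p = 0.00235, edgeR).

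Igfbp4 was the member that was higher in LECs of both genotypes. WT LEC libraries held 1969.7, 1740.5, 2703 and 3057 CPM and KO LEC libraries 1969, 2234 and 1435 CPM, all above the highest IntSC value of 1355 CPM. The log2 fold change was 1.19 ± 0.20 in WT (adjusted p = 0.000486, edgeR) and 0.63 ± 0.20 in KO (adjusted p = 0.0401, edgeR). The KO call was lost with upper-quartile factors (adjusted p = 0.069, edgeR) and in 6 of the 8 fits without 1 library, those fits giving adjusted p-values from 0.0165 to 0.127, while the WT call held throughout.

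Igfbp5 changed sides with genotype. In WT it was lower in LECs, at 148 ± 6.19 CPM (SD, n = 4) against 239 ± 59.9 CPM (SD, n = 6), and in KO it was higher, at 336 ± 50.0 CPM (SD, n = 3) against 89.1 ± 32.5 CPM (SD, n = 5). The log2 fold changes were -0.71 ± 0.23 (adjusted p = 0.0362, edgeR) and 1.84 ± 0.30 (adjusted p = 0.00155, edgeR). The WT call was lost in 7 of 10 fits without 1 library, including each of the 4 that left out a WT LEC library, and when no filter beyond 1 read was used, with adjusted p-values over the 10 fits from 0.0265 to 0.0788, and the KO call held in 8 of 8. In order of mean, KO LEC and WT IntSC overlapped, and WT LEC and KO IntSC stood below them without overlap.

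Igfbp6 was close to unread in LECs, with 28, 0, 6 and 1 reads in WT and 2, 34 and 27 reads in KO, or at most 3.72 CPM. Its lowest IntSC library, WT replicate 4, was at 3.51 CPM and fell inside the KO LEC range, but within each genotype the cell types did not overlap. The log2 fold change was -4.56 ± 1.26 in WT and -3.78 ± 0.92 in KO (adjusted p = 0.0159 and 0.0127, edgeR). Igfbp6 passed the filter on low counts through the IntSC libraries. The size of its folds therefore rests on 35 reads over the WT LEC group and 63 over the KO LEC group. Igfbp2 was lower in KO LECs than in KO IntSCs by a log2 value of -3.03 ± 0.69 (adjusted p = 0.00945, edgeR), a call lost in the fit of all 4 groups (0.110). Igfbp2 and Igfbp3 did not pass the edgeR test between the WT cell types (adjusted p = 0.534 and 0.217).

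Igfbp7 was lower in LECs, at 331 to 710 CPM in WT and 537 to 663 CPM in KO, against 787 to 4828 CPM in WT IntSC and 1596 to 3364 CPM in KO IntSC. The log2 fold change was -2.50 ± 0.42 in WT (adjusted p = 0.00063, edgeR) and -2.30 ± 0.26 in KO (adjusted p = 0.000158, edgeR). This gene shares its 3′ end with another. Igfbp7 at chr5:77349240-77408045 and Polr2b, which encodes a core subunit of RNA polymerase II, run towards each other on opposite strands and overlap by 89 bases in RefSeq GRCm38.p6. The strand setting of the counting is not given in the sources used here.

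Polr2b was the gene nearest to Igfbp7 of the 10719 genes compared, with a root mean square difference of 0.24 in centred log2(CPM + 1) over the 18 libraries. It had 46.8 to 91.0 reads for every 100 reads of Igfbp7 in each library. Polr2b averaged 1979.7 ± 805 CPM in WT IntSC, 1742 ± 289 CPM in KO IntSC, 358 ± 132 CPM in WT LEC and 451 ± 113 CPM in KO LEC. Its log2 fold change of LEC against IntSC was -2.47 ± 0.36 in WT and -2.03 ± 0.23 in KO, beside -2.50 and -2.30 for Igfbp7. Reads of the 2 genes cannot be told apart from these tables, so the level of either is uncertain.

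**Figure D4:**
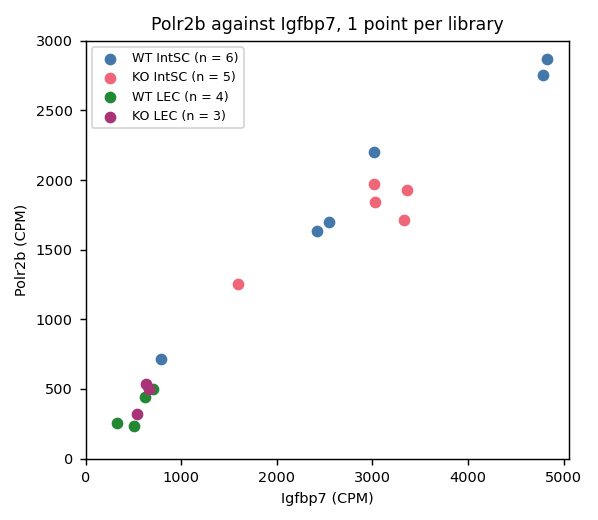
Polr2b (y axis, CPM) against Igfbp7 (x axis, CPM), the gene it overlaps at the 3′ end, with 1 point per library and 1 colour per group. The points lie along one band, with 46.8 to 91.0 Polr2b reads per 100 Igfbp7 reads, from the LEC libraries at the lower left to WT IntSC replicates 4 and 5 at the upper right.

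Other members also overlap annotated transcripts. Igf1 overlaps Igf1os, Igf2 overlaps Igf2os and Mir483, and Igf1r contains 2 long noncoding genes, so reads of these pairs may have been divided between them. Igfbp2, Igfbp3, Igfbp4, Igfbp5 and Igfbp6 overlap no other annotated gene.

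Further genes of the pathway were taken from a list of 41 receptors, binding proteins, proteases, adaptors and kinases. In KO against WT IntSC, 35 were tested, 2 were called higher and 1 lower, beside 0.853% higher and 0.62% lower over all genes tested, and the median log2 fold change was 0.17. Stc2, an inhibitor of the Pappa protease, was higher in every KO library, at 293 to 550.2 CPM against 115 to 204 CPM in WT. Its log2 fold change was 1.26 ± 0.19 (adjusted p = 0.000898, edgeR), a call kept in 11 of 11 fits without 1 library and lost in the fit of all 4 groups. Insr, the insulin receptor, was at 67.3 to 94.3 CPM in KO and 22.9 to 59.0 CPM in WT (95% interval of the log2 fold change 0.52 to 1.48, adjusted p = 0.0448, edgeR). Pik3r1, the regulatory subunit of phosphoinositide 3-kinase that docks on receptor adaptors, was lower in KO by a log2 value of -0.78 ± 0.18 (adjusted p = 0.0318, edgeR), at 247 to 446 CPM against 445 to 676 CPM, with groups that touched. The Insr call was lost in 10 of 11 fits without 1 library (adjusted p from 0.0321 to 0.143) and the Pik3r1 call in 6 of 11 (0.0225 to 0.107), and both were lost in the fit of all 4 groups (0.686 and 0.157).

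By group of the list, 1 of 3 tested receptors was called in this comparison, 1 of 7 tested proteases and protease inhibitors, 1 of 8 tested adaptors, none of 10 kinases and downstream genes and none of 6 genes of the growth hormone axis and RNA regulators. Of the 4 other binding proteins on the list, 1 was counted often enough to test. Igfbp1, the liver binding protein, was at 0 in 5 of 6 WT IntSC libraries and at most 17.7 CPM in any library, and Igfbpl1 was at 0 in all 18. In KO against WT LEC, none of 29 tested genes of the list was called by edgeR, beside 0.0658% of all genes tested. An unadjusted p under 0.05 was seen for 3 of them. The share of all genes at that threshold was not taken, so nothing is read from this count.

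Between the WT cell types, 4 of 33 tested genes of the list were called higher in LECs and 11 lower, beside 10.3% and 12.3% of all genes tested. In KO, 3 of 37 were called higher and 11 lower, beside 9.11% and 16.8%. Among the proteases Pappa was higher in stroma, at 398 to 1318 CPM in WT IntSC and 873 to 1876 CPM in KO IntSC, against 55.6 to 75.9 CPM in WT LEC and 4.04 to 33.2 CPM in KO LEC. Stc1 had the reverse pattern, at 0.457 to 34.2 CPM in IntSC, 143 to 229.5 CPM in WT LEC and 326 to 416 CPM in KO LEC, with log2 fold changes of LEC against IntSC of 3.36 ± 0.40 in WT and 4.28 ± 0.77 in KO (adjusted p = 1.6e-05 and 0.00273, edgeR). Htra3, a secreted serine protease, was higher in stroma too, with a mean of 566 CPM in WT IntSC and 34.3 CPM in WT LEC. Htra1, of the same family, averaged 101 CPM and 11.1 CPM, and Adamts1, a secreted metalloprotease, 161 CPM and 23.4 CPM. In KO, Htra1 averaged 67.4 CPM in IntSC and 6.78 CPM in LEC, and Adamts1 266 CPM and 95.6 CPM, without overlap. Neither passed there (adjusted p = 0.0718 and 0.0568, edgeR).

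Downstream of the receptor the directions were mixed: of the kinases and downstream genes 2 were called higher and 1 lower in WT LECs, and of the adaptors 1 higher and 3 lower. Akt1, a kinase activated by IGF signalling, averaged 149.5 CPM in WT IntSC and 336 CPM in WT LEC (log2 fold change 1.16 ± 0.24, adjusted p = 0.00211, edgeR). Foxo1, a transcription factor that this kinase holds out of the nucleus, averaged 63.6 CPM and 129 CPM, and the adaptor Shc1 54.8 CPM and 104 CPM (adjusted p = 0.0222 and 0.0218, edgeR). In KO, Shc1 was again called higher in LECs (adjusted p = 0.0224, edgeR), and Akt1 and Foxo1 did not pass (adjusted p = 0.161 and 0.0554, edgeR). Akt2, a relative of Akt1, was lower in LECs, at 33.01 to 73.8 CPM in WT and 18.02 to 31.8 CPM in KO against 189.7 to 343 CPM in IntSC. Pik3r1 was lower too, at 124 to 147 CPM in WT LEC (log2 fold change -2.10 ± 0.21, adjusted p = 2.36e-06, edgeR). The adaptor Irs1 was at 10.8 to 42.7 CPM in IntSC and had 8 reads over the 4 WT LEC libraries and 0 over the 3 KO LEC libraries. Irs2 had 74 reads over WT LEC and 1 over KO LEC, against 635 and 1034 over the IntSC groups. Igf2bp2, an RNA-binding protein of Igf2 mRNA, had 1 read over WT LEC and 519 over WT IntSC. Stc2 averaged 11.8 CPM in WT LEC and 6.27 CPM in KO LEC, with 1 WT library at 0.

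**Figure D5:**
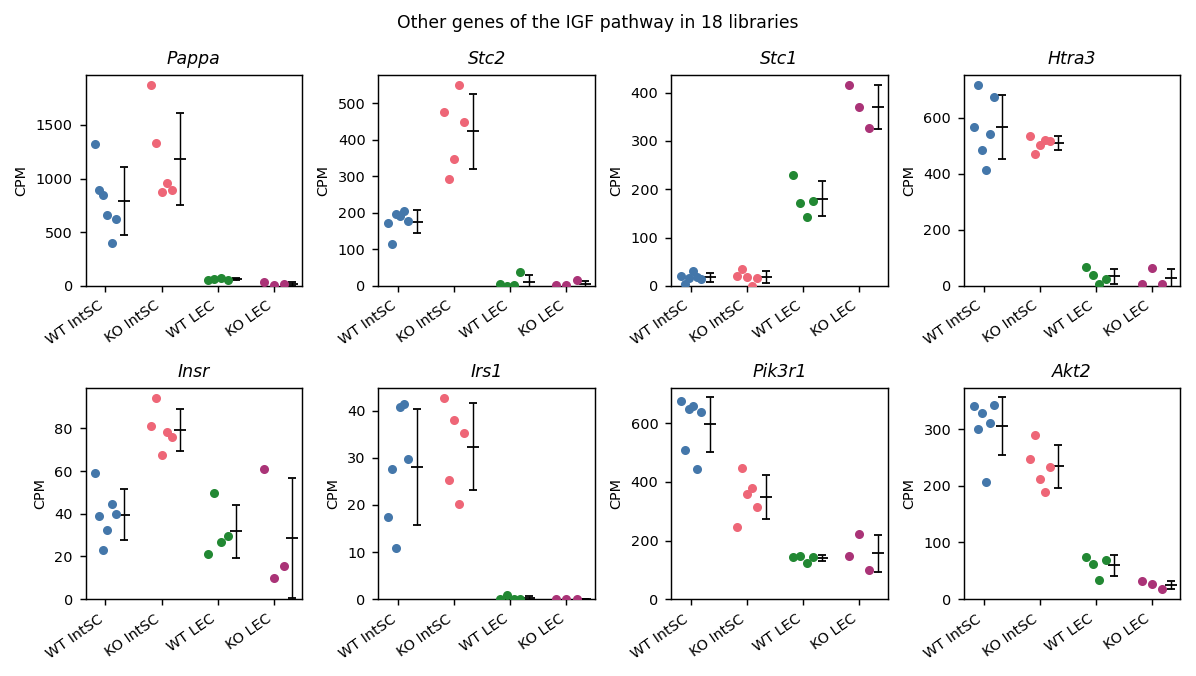
Levels (y axis, CPM, a separate scale in each panel) of 8 genes that act around the IGF receptor, with 1 point per library and a bar for the mean ± SD beside each group. Pappa, Htra3, Irs1 and Akt2 are stromal, Stc1 is high in LECs, and Stc2 and Insr are higher in the KO IntSC libraries than in the WT IntSC libraries.

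Pappa was also the only one of 38 tested list genes called for the difference of genotype differences, by a log2 value of 2.54 ± 0.63 (adjusted p = 0.043, edgeR). Its call was lost in 4 of 8 alternatives and in 13 of 18 fits without 1 library, whose adjusted p-values ran from 0.00156 to 0.0977.

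The genes with profiles most like the members over the 18 libraries were named by the smallest root mean square difference of centred log2(CPM + 1), as a description. Nrp1, a co-receptor for VEGF and semaphorins, was nearest to Igf1 at 0.43, with a mean of 237 CPM in WT IntSC and 24.1 CPM in WT LEC. Tmem59 was nearest to Igfbp4 at 0.18, and Mrps36 to Igfbp5 at 0.46. Igfbp2 had no close match: Wisp2, a matricellular gene of the CCN family, was nearest at 1.38 and Pex5l next at 1.46. Wisp2 was at 11.7 to 33.8 CPM in the KO IntSC libraries and at most 0.167 CPM in WT IntSC, and it was at 0 in the LEC libraries. Igf2, Igf1r, Igfbp3 and Igfbp6 were nearest to Rqcd1 (0.65), Tnrc6a (0.48), Klf6 (0.49) and Ppp1r12b (0.69).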

How the data were processed

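RNA was measured in 18 libraries made with the QuantSeq 3′ kit from sorted cells. The authors deposited 1 table of raw read counts per library, whole numbers per gene symbol and not normalised. Per the submitters' processing notes, Bowtie2, edgeR and the mm10 build were used, and the study's methods name TopHat and Cufflinks. The counting program, the annotation and the strand setting are not given in the sources used here. Each table held 23282 rows, and the counts of 35 symbols found on more than 1 row, none of them a member, were summed.

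Tests across genes used edgeR 4.0.16 under R 4.3.3 (TMM factors, filterByExpr, robust quasi-likelihood fit, Benjamini-Hochberg over all genes tested, threshold 0.05). Only the 2 groups compared entered a fit, except for the interaction, and all 9 members passed the filter in each. The method was also run on counts simulated from the means and fitted dispersions of these libraries, without a batch. No member result rests on that run. The sample titles gave the group and the replicate number. Deviations of same-numbered libraries were hardly correlated (at most 0.0802), so the numbers were not used as pairs. For WT LEC against WT IntSC these correlations were 0.0234 to 0.0448, against a mean of -0.0072 for different numbers.

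The members, pathway lists, markers and the rule for named genes (all members; at most 8 called list genes by smallest p; the 2 nearest profiles among genes with a mean of at least 5 CPM, of which the text gives the nearest and, where it helps, the next) were chosen with earlier results of these data known. Akt1, Foxo1, Shc1, Adamts1, Kcnj8, Abcc9 and the other marker genes described singly, apart from Pdgfrb, were named beyond the rule, after their values were seen. Alternatives were other scaling factors, DESeq2 1.42.0, limma-voom (limma 3.58.1), other filters, removal of the ribosomal precursor Rn45s, a replicate block, 1 fit of all 4 groups, and each library left out. Coordinates and promoter sequences are from RefSeq GRCm38.p6, the assembly of mm10. Depth covers counting error only, since PCR copies were not marked.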

Additional observations from a re-analysis of the deposited data

Results flagged for a closer look

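Igfbp7 in KO IntSC replicate 2 was far from its group, at 1596 CPM against 3016 to 3364 CPM in the other 4 libraries. It was the only such value among 27 sets of member values examined, and about 1 set in 20, or 1.35 here, would be picked out by chance.

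The genotype difference of Igfbp5 was not the same in the 2 cell types: its value in IntSCs minus that in LECs was -2.55 on the log2 scale by the edgeR interaction test. Pappa, a protease of binding proteins, differed by 2.54 in the same test, a call that several alternatives lost.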

How the results depend on the processing

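Igfbp5 kept its direction and its call in KO against WT IntSC and for the interaction under each alternative run. The number of members called fell in KO against WT IntSC from 2 to 1 without a filter beyond 1 read and to 1 in the fit of all 4 groups, and rose to 3 with DESeq2. In KO against WT LEC it rose from 0 to 1 with DESeq2 and to 1 in the fit of all 4 groups. With the replicate number as a block, members called went from 6 to 4 between the WT cell types and from 7 to 4 between the KO cell types, and stayed at 2, 0 and 1 in the genotype comparisons and the interaction. The block lost Igf1 (edgeR adjusted p = 0.078), Igfbp5 (0.231) and Igfbp6 (0.065) and added Igfbp3 in WT, and lost Igfbp2 (0.077), Igfbp4 (0.220) and Igfbp6 (0.161) in KO, but the samples share only a number. Without 1 library, members called ranged from 2 to 2 and 0 to 0 in the genotype comparisons, 5 to 6 and 6 to 7 between cell types, and 1 to 1 for the interaction.

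Values that changed sign were near 0 or imprecise. Igfbp7 in KO against WT IntSC was 0.036 with limma-voom and 0.07, 0.08 and 0.06 without WT IntSC replicate 4, WT IntSC replicate 5 and KO IntSC replicate 2, in a range without 1 library from -0.29 to 0.08. Igfbp2 in KO against WT LEC was -0.14, -0.14 and -0.39 without WT LEC replicates 1 and 3 and KO LEC replicate 2, in a range from -0.39 to 1.19. Igfbp3 between the KO cell types was 0.034 without KO LEC replicate 3, in a range from -0.46 to 0.034.

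The counts over all genes depended strongly on the setting. KO against WT IntSC gave 183 genes, 27 with all 4 groups in the fit, 455 with DESeq2 and 99 to 186 without 1 library. KO against WT LEC gave 7, from 3 with the block to 538 with all 4 groups and 0 to 16 without 1 library. The WT cell types gave 2763, from 1596 (block) to 3775 (DESeq2), the KO cell types 3302, from 895 to 4589 by the same settings, and the interaction 238, from 16 to 1159, and 161 to 461 without 1 library. The causes were not tested. With 3 and 4 LEC libraries the intervals of low members such as Igf2, Igfbp2 and Igfbp6 were wide.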
